A study of Homo sapiens with 14 samples.

Results

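Cells break glucose down through glycolysis, store it as glycogen and divert part of it into the pentose phosphate pathway, which supplies ribose and reducing power. Many steps are shared by isozymes, which catalyse the same reaction but are encoded by different genes. In low oxygen, the transcription factor HIF-1 is known to raise glucose transporters, glycolytic enzymes and PDK1, a kinase that slows the use of pyruvate by the mitochondria. The 45 genes described here cover glucose uptake, glycolysis, lactate and pyruvate handling, glycogen, 2 enzymes of gluconeogenesis and the pentose phosphate pathway. They were taken as a list, by symbol in the array annotation, from 18417 genes measured by a probe set that names 1 gene. Of the 45, 42 had such a probe set. PGAM1 is named on 5 probe sets that all name a second gene as well, and SLC16A1 and SLC16A3, the lactate transporters, are not named in the annotation used here. A filter on dim genes, set at a mean log2 level of 5.90 over the arrays, kept 11050 genes and 36 members. HK2, PFKFB4, LDHB, PDK3, PDK4 and H6PD fell below it and are given by their values alone.

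RNA was measured on 14 arrays, 1 for each condition, in gastric carcinoma cells and in their derivative MKN28snai1ER. The labels call the parental cells MKN28, whereas MKN74 stands in the study's text. The parental line was kept in hypoxia (1% oxygen) or given 10 ng/mL TGFβ for 1 and 2 days, each with and without ANGPTL4 knockdown, and 1 untreated array of day 2 is the only other array of that line. The derivative carries a Snai1-ER transgene, in which Snai1 is fused to a receptor domain that 4-hydroxytamoxifen (4-OHT) activates. It was given 20 ng/mL 4-OHT for 2 and 4 days, with and without knockdown, and was measured untreated on day 4. These treatments serve as models of epithelial-mesenchymal transition, and ANGPTL4 is a secreted protein that the study links to energy metabolism. The labels name only an ANGPTL4 knockdown. The study's text describes siRNA for the parental line and a doxycycline-inducible shRNA for the derivative, without saying which was used for the arrays. No untreated array carries the knockdown. With 1 array per condition there are no replicates, so p-values below measure the spread between pairs of arrays across times and treatments. A level is a log2 value after quantile normalization over the 14 arrays, and a difference of 1 between levels is a 2-fold change. Values given in pairs are day 1 and day 2 for the parental line, and day 2 and day 4 for the derivative. Levels of different genes come from different probes and are not compared. In such bulk RNA, fewer cells that express a gene and less RNA of it per cell cannot be told apart.

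Both TGFβ arrays without knockdown had deposited medians of 5.23 and 5.19, against 6.0 to 6.16 on the other 12 arrays, and quantile normalization puts all arrays on 1 distribution. The hypoxia array with knockdown of day 1 stood farthest from the rest, with a standard deviation of 0.72 around the other arrays' mean, against 0.27 to 0.56 for the other 13. The epithelial keratins KRT8 (9.62, of 9.62 to 12.46 over all arrays) and KRT18 (10.74, of 10.74 to 12.08) were at their lowest there. KRT19 (11.94) and EPCAM (11.96), also epithelial, were at their highest there, and CDH1 read 10.76. Known hypoxia targets disagreed on this array. EGLN3 was at its highest there (10.55), and ANKRD37 (9.47, against 7.79 untreated) and NDRG1 (10.15, against 9.33) were above the untreated level. KDM3A (9.25, against 8.86), ADM (7.43, against 7.19) and VEGFA (9.27, against 9.57) were nearer to it. Hypoxia without knockdown gave 10.64 and 10.39 for KDM3A, 7.87 and 8.07 for ADM and 10.11 and 10.14 for VEGFA. BNIP3, below the filter, read 5.31 there and 5.64 untreated. Epithelial EPCAM (11.46 to 11.96) and CDH1 (10.52 to 11.40) were high on every array, and 6 of 8 leukocyte, endothelial and fibroblast markers were below 5.90 on all of them. The other 2 were CD68 (6.93 to 8.09) and COL1A1 (6.62 to 7.23). SNAI1 read 8.74 to 9.78 on the derivative's arrays and 5.48 to 6.07 on those of the parental line. ANGPTL4 read 4.97 to 5.39 on all 14 arrays, below the filter, so its probe set does not check the knockdown.

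Hypoxia without knockdown was set against the untreated parental array, to ask which steps of glucose metabolism differ in low oxygen. Of the 36 members, 7 were at least 1.5-fold higher on both days: PFKP, PFKFB3, ALDOC, PGK1, ENO2, PDK1 and GBE1. Among all 11050 genes, 334 (3.02%) met the same rule. No member was that much lower on both days, against 216 genes (1.95%). The median difference of the 36 members, averaged over both days, was 0.16, against -0.03 for all genes. There is no test here, because each side of the comparison is 1 array at a time, and hypoxia and TGFβ share the same untreated array.

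**Figure D1:**
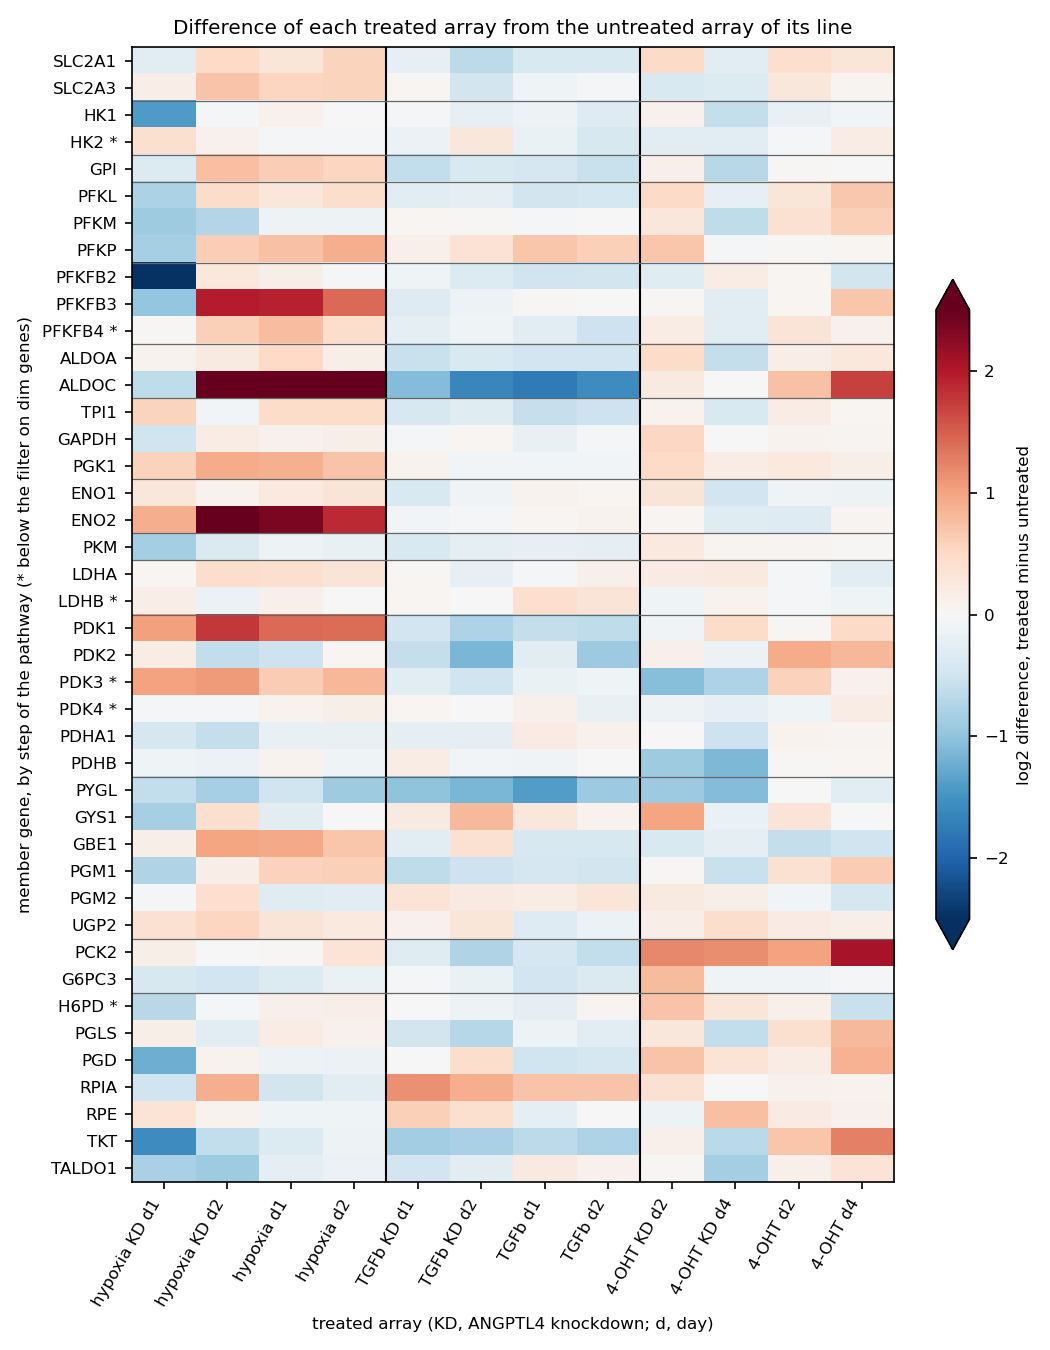
Each cell is the log2 difference of 1 treated array (columns) from the untreated array of its line, for the 42 measured members (rows, in pathway order; an asterisk marks the 6 below the filter); the colour scale ends at -2.5 and 2.5. ENO2 and PDK1 are red on all 4 hypoxia columns and ALDOC and PFKFB3 on 3 of them, and ALDOC, PFKFB3, PFKFB2 and TKT are blue on the hypoxia array with knockdown of day 1.

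Glucose enters through the transporters SLC2A1 (GLUT1) and SLC2A3 (GLUT3), and neither reached the 1.5-fold rule with hypoxia. SLC2A1 read 11.64 and 12.39 on the hypoxia arrays with knockdown, 12.21 and 12.45 on those without, 11.70 and 11.24 on the TGFβ arrays with knockdown and 11.51 and 11.53 on those without, against 11.90 on the untreated array. It was 1.24- and 1.47-fold higher with hypoxia without knockdown. SLC2A3 was 1.45- and 1.47-fold higher, with levels of 12.65 and 12.66 against 12.11. Hexokinase traps glucose in the cell as glucose-6-phosphate. HK1 stood at 8.31 and 8.19 in hypoxia and 8.20 untreated, and HK2 stayed between 5.00 and 5.80 on all arrays, below the filter. GPI, the isomerase of the next step, was 1.53- and 1.45-fold higher in hypoxia, so that it met the rule on day 1 and missed it on day 2.

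Phosphofructokinase commits the sugar to glycolysis, and PFKL, PFKM and PFKP encode its liver, muscle and platelet subunits. PFKP read 8.0 and 9.45 on the hypoxia arrays with knockdown, 9.56 and 9.74 on those without, 8.95 and 9.20 on the TGFβ arrays with knockdown and 9.53 and 9.44 on those without, against 8.83 on the untreated array. Its hypoxia arrays without knockdown were 1.66- and 1.88-fold higher than the untreated array, and its day 1 array with knockdown was the lowest of all 14. PFKL read 6.55 and 7.81 with hypoxia and knockdown, 7.63 and 7.78 with hypoxia alone, 7.09 and 7.10 with TGFβ and knockdown, 6.90 and 6.90 with TGFβ alone and 7.35 untreated. PFKM, in contrast, read 6.76 and 6.93 with hypoxia and knockdown, 7.52 and 7.53 with hypoxia alone, 7.71 and 7.68 with TGFβ and knockdown, 7.61 and 7.65 with TGFβ alone and 7.66 untreated. PFKL was thus higher with hypoxia by less than the rule asks, and PFKM was within 0.14 of the untreated level without knockdown and lower on both arrays with it.

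The PFKFB enzymes make and break down fructose 2,6-bisphosphate, the strongest activator of phosphofructokinase. PFKFB3, whose enzyme mainly makes it, read 5.99 and 8.93 on the hypoxia arrays with knockdown, 8.90 and 8.39 on those without, 6.64 and 6.84 on the TGFβ arrays with knockdown and 6.99 and 6.97 on those without, against 6.97 on the untreated array. It was 3.82- and 2.68-fold higher in hypoxia without knockdown, about as high with knockdown on day 2, and below the untreated level with knockdown on day 1. PFKFB2 read 5.88 and 8.61 with hypoxia and knockdown, 8.49 and 8.33 with hypoxia alone, 8.24 and 8.0 with TGFβ and knockdown, 7.85 and 7.89 with TGFβ alone and 8.35 untreated. Without knockdown the hypoxia arrays were within 0.14 of the untreated one, and the day 1 array with knockdown was the lowest of all 14. PFKFB4, below the filter, read 5.21 and 5.77 with hypoxia and knockdown, 5.95 and 5.62 with hypoxia alone, 4.93 and 5.06 with TGFβ and knockdown, 4.88 and 4.66 with TGFβ alone and 5.17 untreated, and it too was higher on both hypoxia arrays without knockdown.

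Aldolase splits fructose 1,6-bisphosphate into 2 trioses. ALDOC, the isozyme best known from brain, read 6.92 and 10.82 on the hypoxia arrays with knockdown, 10.13 and 10.22 on those without, 6.46 and 5.91 on the TGFβ arrays with knockdown and 5.78 and 5.97 on those without, against 7.54 on the untreated array. The difference was the largest of any member, 6.0- and 6.39-fold without knockdown, while the day 1 array with knockdown was below the untreated one. ALDOA, the muscle and general isozyme, read 9.62 and 9.76 with hypoxia and knockdown, 10.04 and 9.68 with hypoxia alone, 8.97 and 9.15 with TGFβ and knockdown, 9.05 and 9.05 with TGFβ alone and 9.54 untreated. It was 1.41- and 1.10-fold higher in hypoxia without knockdown, and on all 4 hypoxia arrays it was above the untreated level. In the derivative, ALDOC read 6.11 and 5.87 with 4-OHT and knockdown, 6.61 and 7.60 with 4-OHT alone and 5.88 untreated, and ALDOA 9.53 and 8.46 with 4-OHT and knockdown, 9.23 and 9.32 with 4-OHT alone and 9.06 untreated.

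TPI1, GAPDH and PGK1 carry the trioses on to the first step that yields ATP, which PGK1 catalyses. PGK1 read 10.59 and 10.93 on the hypoxia arrays with knockdown, 10.90 and 10.72 on those without, 10.10 and 9.95 on the TGFβ arrays with knockdown and 9.94 and 9.94 on those without, against 10.01 on the untreated array. All 4 hypoxia arrays were above the untreated and all TGFβ arrays, and without knockdown the difference was 1.86- and 1.63-fold. In the derivative PGK1 read 10.55 and 10.26 with 4-OHT and knockdown, 10.31 and 10.22 with 4-OHT alone and 10.08 untreated. TPI1, an average of 2 probe sets, was 1.38- and 1.37-fold higher, and GAPDH 1.08- and 1.11-fold. GAPDH, often used as a reference gene, stayed between 12.21 and 13.03 on the 12 treated arrays.

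Enolase follows, and its isozymes parted. ENO2, the neuronal enolase, read 6.94 and 8.99 on the hypoxia arrays with knockdown, 8.38 and 7.89 on those without, 5.95 and 5.97 on the TGFβ arrays with knockdown and 6.08 and 6.10 on those without, against 6.02 on the untreated array. Every hypoxia array was above every other parental array, with differences of 5.13- and 3.66-fold without knockdown. ENO1, the general isozyme, read 12.79 and 12.59 with hypoxia and knockdown, 12.74 and 12.82 with hypoxia alone, 12.11 and 12.42 with TGFβ and knockdown, 12.59 and 12.54 with TGFβ alone and 12.50 untreated, and its hypoxia and untreated levels lay within 0.32 of each other. ENO2 of the derivative read 6.21 and 5.85 with 4-OHT and knockdown, 5.84 and 6.23 with 4-OHT alone and 6.16 untreated, close to the parental untreated level throughout, and ENO1 12.98 and 12.18 with 4-OHT and knockdown, 12.57 and 12.53 with 4-OHT alone and 12.65 untreated.

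At the end of the pathway differences were small. PKM, pyruvate kinase, was -0.12 and -0.19 from the untreated level with hypoxia. LDHA, which turns pyruvate into lactate, was 1.33- and 1.25-fold higher. LDHB, which favours the reverse reaction, read 3.93 to 4.54 on all arrays, below the filter.

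The pyruvate dehydrogenase kinases switch off pyruvate dehydrogenase, the mitochondrial enzyme that turns pyruvate into acetyl-CoA. PDK1 read 10.20 and 10.93 on the hypoxia arrays with knockdown, 10.58 and 10.55 on those without, 8.69 and 8.38 on the TGFβ arrays with knockdown and 8.56 and 8.53 on those without, against 9.16 on the untreated array. It was 2.68- and 2.62-fold higher in hypoxia without knockdown, and its 4 hypoxia arrays were the highest of the 14. PDK2 read 7.13 and 6.35 with hypoxia and knockdown, 6.43 and 7.01 with hypoxia alone, 6.35 and 5.82 with TGFβ and knockdown, 6.67 and 6.04 with TGFβ alone and 6.95 untreated, with no common direction in hypoxia. PDK3, below the filter, read 6.04 and 6.10 with hypoxia and knockdown, 5.67 and 5.88 with hypoxia alone, 4.78 and 4.54 with TGFβ and knockdown, 4.88 and 4.94 with TGFβ alone and 5.04 untreated. It met the 1.5-fold rule on both days (1.55- and 1.78-fold) and was also higher on both hypoxia arrays with knockdown, from a dim level. PDK4 read 4.44 and 4.42 with hypoxia and knockdown, 4.56 and 4.62 with hypoxia alone, 4.51 and 4.46 with TGFβ and knockdown, 4.59 and 4.27 with TGFβ alone and 4.46 untreated, which gives no difference above 0.19. PDHA1 and PDHB, subunits of the dehydrogenase itself, were -0.18 and -0.19 and 0.08 and -0.12 from the untreated level.

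Of the glycogen genes, GBE1, the branching enzyme, read 9.68 and 10.51 on the hypoxia arrays with knockdown, 10.48 and 10.23 on those without, 9.26 and 9.90 on the TGFβ arrays with knockdown and 9.14 and 9.14 on those without, against 9.53 on the untreated array. It was 1.93- and 1.62-fold higher in hypoxia without knockdown, and in the derivative it read 9.10 and 9.24 with 4-OHT and knockdown, 8.88 and 8.98 with 4-OHT alone and 9.48 untreated. PGM1, which links glucose-1-phosphate and glucose-6-phosphate, was 1.48- and 1.52-fold higher, just under the rule on day 1 and over it on day 2. UGP2, which makes UDP-glucose, was 1.24- and 1.19-fold higher. GYS1, glycogen synthase, was -0.27 and 0.01 from the untreated level. PYGL, a phosphorylase that breaks glycogen down, was lower by 0.50 and 0.89 on the log2 scale. PGM2 was -0.30 and -0.27 from untreated. PCK2 and G6PC3, of gluconeogenesis and glucose release, were 0.03 and 0.34 and -0.35 and -0.17 from it.

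The pentose phosphate genes showed no member past the rule with hypoxia. PGLS and PGD, of the oxidative branch, were 0.18 and 0.11 and -0.12 and -0.14 from the untreated level, and H6PD, below the filter, 0.13 and 0.17. In the branch that interconverts sugars, RPIA was -0.46 and -0.27, RPE -0.11 and -0.11, TKT -0.34 and -0.12 and TALDO1 -0.25 and -0.15. Of these 6 kept genes only PGLS was above the untreated level on both days.

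HIF-1 and other factors bind short DNA words built on ACGTG, so promoters are shown for the 4 members that met the hypoxia rule and had every hypoxia array above every TGFβ array. The RefSeq table of build GRCh38.p14 gave a window of 250 bases before and 50 after each listed start for 42 of the 45 members, which are not the same 42 as those measured. ACGTG on either strand occurred in 21.4% of all 35116 windows, and in at least 1 window of 24.9% of 27305 genes. GCGTG occurred in 36.5% of windows, and CACGTG, which contains ACGTG on both strands, in 7.3%. Of the 7 members higher in hypoxia, 7 had ACGTG in at least 1 window, against 13 of the 27 other kept members with a window (48.1%). For GCGTG the counts were 5 of the 7 and 16 of the 27, against 11077 of the 27305 genes. A gene with several starts has more windows in which to match, and a match says nothing about binding. The 250 bases before the start follow, 5′ to 3′ on the gene's strand, with ACGTG or its reverse complement CACGT in capitals.
ALDOC: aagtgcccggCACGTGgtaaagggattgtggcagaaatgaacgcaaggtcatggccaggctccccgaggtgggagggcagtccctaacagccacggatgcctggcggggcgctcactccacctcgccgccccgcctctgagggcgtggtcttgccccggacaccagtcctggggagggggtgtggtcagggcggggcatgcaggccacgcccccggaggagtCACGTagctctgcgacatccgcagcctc
ENO2: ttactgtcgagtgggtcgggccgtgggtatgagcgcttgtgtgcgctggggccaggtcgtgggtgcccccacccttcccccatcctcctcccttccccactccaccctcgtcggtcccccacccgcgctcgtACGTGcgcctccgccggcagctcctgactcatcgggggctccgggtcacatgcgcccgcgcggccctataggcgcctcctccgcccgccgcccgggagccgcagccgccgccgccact
PDK1: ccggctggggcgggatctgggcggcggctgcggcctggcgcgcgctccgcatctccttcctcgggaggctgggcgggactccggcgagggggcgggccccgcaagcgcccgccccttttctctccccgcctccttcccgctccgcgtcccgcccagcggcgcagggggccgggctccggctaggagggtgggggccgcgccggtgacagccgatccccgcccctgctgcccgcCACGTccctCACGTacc
PGK1: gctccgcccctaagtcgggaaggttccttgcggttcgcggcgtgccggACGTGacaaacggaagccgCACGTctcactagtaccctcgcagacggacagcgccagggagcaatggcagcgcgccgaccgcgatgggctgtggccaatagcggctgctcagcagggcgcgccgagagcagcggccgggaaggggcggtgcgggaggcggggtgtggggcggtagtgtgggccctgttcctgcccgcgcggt
The ALDOC stretch (chr17:28576896-28577145, minus strand) holds a CACGTG far upstream, counted once on each strand, and a CACGT 28 bases before the start. That of ENO2 (chr12:6914330-6914579, plus strand) holds 1 match, 118 bases before the start. PDK1 has 2 listed starts. The stretch shown belongs to the downstream one (chr2:172555840-172556089, plus strand), with matches 17 and 8 bases before it, and the other start had none. PGK1 (chrX:78103998-78104247, plus strand) has matches 202 and 183 bases before its start.

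Hypoxia was then set against TGFβ, the only contrast of treatments within 1 line that has several arrays on both sides, in 4 pairs matched by day and knockdown. Each pair sets 1 hypoxia array against the TGFβ array of the same day and knockdown state. PDK1, ENO2 and PGK1 were higher in hypoxia after adjustment over all genes by limma, 3 of 36 members, against 111 of 11050 genes (1.00%). None was lower, against 169 genes (1.53%). At an unadjusted p under 0.05, 15 members were higher and 5 lower, against 8.73% and 12.4% of all genes. The median difference of the members was 0.36, against -0.01 for all genes. It was 0.42 against 0.22 as deposited, and -0.02 against -0.21 with each array centred on its median.

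PDK1 differed by 1.51, 2.55, 2.02 and 2.02 in the pairs of day 1 with knockdown, day 2 with knockdown, day 1 and day 2 without, in that order. Its mean was 10.57 ± 0.30 on the hypoxia arrays and 8.54 ± 0.13 on the TGFβ arrays (SD, n = 4 each), and limma gave 2.03 (SE 0.19, adjusted p = 0.0189, higher in 4 of 4 pairs). ENO2, in the same order, differed by 0.99, 3.02, 2.30 and 1.79, with an estimate of 2.03 (SE 0.32, adjusted p = 0.0394). PGK1 differed by 0.49, 0.98, 0.96 and 0.77, with an estimate of 0.80 (SE 0.15, adjusted p = 0.0486). For all 3, the smallest difference was that of day 1 with knockdown, and the hypoxia and TGFβ arrays did not overlap. On the deposited values PGK1 was higher by 0.81 with an adjusted p by limma of 0.117, and with each array centred on its median by 0.37 with one of 0.215. With a mean-variance trend its adjusted p by limma was 0.0547.

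ALDOC had the largest estimate and a wide spread. It differed by 0.46, 4.90, 4.35 and 4.25, and its estimate was 3.49 (SE 0.70, adjusted p = 0.0585, higher in 4 of 4 pairs), which misses the threshold. On the deposited values the estimate was 3.81 (limma adjusted p = 0.0107), and with each array centred on its median 3.37 (limma adjusted p = 0.0298). Without the pair of day 1 with knockdown, whose hypoxia array stood apart, it was 4.50 (SE 0.16, adjusted p = 8.67e-05 by limma).

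The hypoxia levels lay above the TGFβ levels on all 4 arrays against all 4 for 10 of 36 members, against 688 genes (6.23%). These were SLC2A3, GPI, ALDOA, ALDOC, TPI1, PGK1, ENO2, PDK1, PYGL and PCK2, from uptake, several steps of glycolysis, pyruvate entry, glycogen and gluconeogenesis. HK1, GAPDH and the phosphofructokinase genes were not among them. On the deposited values 11 members did so, with ENO1 and PGLS added and GPI lost, against 8.32% of all genes. With each array centred on its median, only ALDOC, ENO2, PDK1 and PYGL did so, 4 of 36 against 2.23% of all genes. PFKM was the only member with all hypoxia arrays below all TGFβ arrays, against 985 genes (8.91%). There were 0 such members as deposited, and 4 with centring (PFKM, PGD, RPIA and RPE), against 13.5% of all genes. GPI differed by 0.29, 1.14, 1.03 and 1.10, an estimate of 0.89 (SE 0.19, adjusted p = 0.0636 by limma). ALDOA differed by 0.65, 0.61, 0.98 and 0.62 and TPI1 by 0.96, 0.24, 1.04 and 0.96. PFKFB3 was higher in 3 of 4 pairs, by -0.65, 2.09, 1.91 and 1.42, with the day 1 pair with knockdown the exception. RPIA, which makes ribose-5-phosphate, went the other way, by -1.64, -0.00, -1.17 and -0.99, an estimate of -0.95 (SE 0.26, adjusted p = 0.119 by limma).

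Leaving out the pair of day 1 with knockdown raised the count to 15 members higher and 0 lower by limma, against 949 genes (8.59%) higher and 1084 (9.81%) lower. The 15 were SLC2A1, SLC2A3, GPI, PFKL, PFKFB2, PFKFB3, ALDOA, ALDOC, TPI1, PGK1, ENO2, PDK1, GBE1, PGM1 and PCK2. Among them SLC2A1 was higher by 0.93 (SE 0.14, adjusted p = 0.00579), PFKFB3 by 1.81 (SE 0.16, adjusted p = 9.76e-04) and GBE1 by 1.01 (SE 0.17, adjusted p = 0.00773), all by limma. Leaving out any other pair left 0 members and 0 genes past the threshold.

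**Figure D2:**
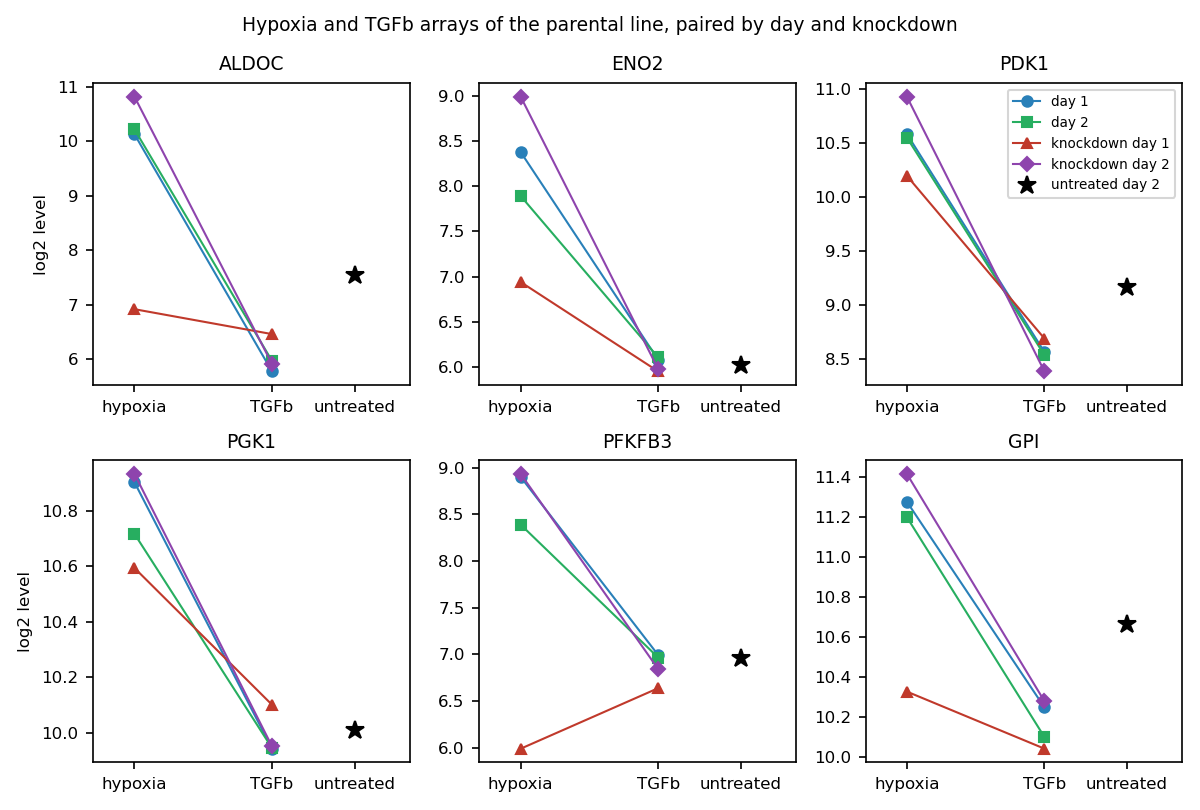
Log2 levels of 6 members on the 4 hypoxia and 4 TGFβ arrays of the parental line, joined by day and knockdown, with the untreated array of day 2 as a star; the vertical axes differ and do not start at 0. The hypoxia arrays lie above the TGFβ arrays for ALDOC, ENO2, PDK1, PGK1 and GPI, on this quantile normalized scale, with the smallest gap for ALDOC, ENO2, PDK1, PGK1 and GPI on day 1 with knockdown, and PFKFB3 crosses over in that pair.

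TGFβ without knockdown was set against the same untreated array. PFKP and RPIA were at least 1.5-fold higher on both days, 2 of 36 members against 273 genes (2.47%). ALDOC, PDK1, PYGL and TKT were that much lower, 4 of 36 against 361 genes (3.27%). The median member was -0.22 on day 1 and -0.26 on day 2, against 0.02 and 7.55e-04 for all genes. Because the deposited medians of these 2 arrays were low, the counts depend on the scale. As deposited, 0 members were higher and 17 lower, with medians of -0.61 and -0.59 for the members and -0.45 and -0.47 for all genes. With each array centred on its median, 5 were higher and 2 lower, with medians of 0.19 and 0.24 for the members and 0.35 and 0.37 for all genes. The share of all genes that met the rule on these other scales is not given here. The counts on them are therefore not set apart from the shift of all genes.

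ALDOC and PYGL met the rule on all 3 scales. ALDOC was -1.77 and -1.57 from untreated, -2.62 and -2.43 as deposited, and -1.82 and -1.59 centred. PYGL read 6.06 and 5.85 on the hypoxia arrays with knockdown, 6.18 and 5.78 on those without, 5.67 and 5.53 on the TGFβ arrays with knockdown and 5.28 and 5.77 on those without, against 6.68 on the untreated array. All TGFβ and hypoxia arrays were below the untreated one, and TGFβ without knockdown differed by -1.39 and -0.91, by -2.29 and -1.78 as deposited and by -1.50 and -0.95 centred. In the derivative PYGL read 6.28 and 6.11 with 4-OHT and knockdown, 7.18 and 6.91 with 4-OHT alone and 7.19 untreated.

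PDK1 (-0.60 and -0.63) and TKT (-0.65 and -0.77) were lower on every scale, but centred on the array medians PDK1 differed by only -0.12 and -0.09, and TKT by -0.07 and -0.10. TKT, transketolase, which moves carbon between the pentose phosphate pathway and glycolysis, read 8.66 and 9.62 on the hypoxia arrays with knockdown, 9.90 and 10.12 on those without, 9.37 and 9.43 on the TGFβ arrays with knockdown and 9.59 and 9.47 on those without, against 10.24 on the untreated array. Both TGFβ arrays with knockdown, whose deposited medians were not low, were also under the untreated level, by 0.88 and 0.81 for TKT and 0.48 and 0.78 for PDK1.

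PFKP and RPIA were higher on every scale by different amounts. PFKP was 0.70 and 0.60 higher after quantile normalization, 0.39 and 0.35 as deposited, and 1.19 and 1.19 centred. RPIA read 5.98 and 7.38 on the hypoxia arrays with knockdown, 6.01 and 6.2 on those without, 7.62 and 7.38 on the TGFβ arrays with knockdown and 7.18 and 7.19 on those without, against 6.47 on the untreated array. Every TGFβ array was above the untreated one, by 1.14 and 0.90 with knockdown and 0.71 and 0.72 without, the last 2 being 0.14 and 0.13 as deposited. RPIA of the derivative read 7.37 and 7.01 with 4-OHT and knockdown, 7.11 and 7.09 with 4-OHT alone and 7.0 untreated, with no such difference for 4-OHT alone. The other kept members ranged between -0.92 and 0.30, the lowest being PDK2 on day 2.

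In the derivative, 4-OHT without knockdown was set against the untreated array of day 4. ALDOC, PDK2, PCK2 and TKT were at least 1.5-fold higher on both days, 4 of 36 members against 257 genes (2.33%). None was that much lower, against 134 genes (1.21%). The median member difference was 0.16, against 0.01 for all genes. Before treatment ALDOC, PCK2, PDK1, SLC2A3 and PFKL were already at least 1.5-fold lower in the untreated derivative than in the untreated parental line, by 1.67, 0.98, 0.89, 0.77 and 0.71 on the log2 scale. PFKP was the only kept member that much higher, by 0.59, and PDK3, below the filter, was higher by 1.04. The lines were measured on different days, and 8.13% of all genes were that much lower and 5.09% higher.

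PCK2, the mitochondrial enzyme that makes phosphoenolpyruvate, read 8.21 and 8.18 with 4-OHT and knockdown, 8.03 and 9.08 with 4-OHT alone and 7.01 untreated. It was 2.02- and 4.19-fold higher without knockdown, and all 4 treated arrays were above the untreated one. Its parental levels were 8.15 and 8.01 with hypoxia and knockdown, 8.02 and 8.34 with hypoxia alone, 7.70 and 7.24 with TGFβ and knockdown, 7.57 and 7.39 with TGFβ alone and 8.0 untreated. TKT read 10.07 and 9.28 with 4-OHT and knockdown, 10.64 and 11.20 with 4-OHT alone and 9.94 untreated. It was 1.62- and 2.40-fold higher with 4-OHT alone, while with knockdown it was above the untreated level on day 2 and below it on day 4.

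Of the remaining 2, ALDOC was 1.66- and 3.29-fold higher and PDK2 1.89- and 1.78-fold. PDK2 read 6.99 and 6.72 with 4-OHT and knockdown, 7.79 and 7.70 with 4-OHT alone and 6.87 untreated, so that its arrays with knockdown were within 0.15 of the untreated level. ALDOC with 4-OHT alone reached 7.60 on day 4, near the 7.54 of the untreated parental line. Of the pentose phosphate genes, PGLS (0.40 and 0.81), PGD (0.18 and 0.87) and TALDO1 (0.12 and 0.35) were above the untreated level on both days without meeting the rule. So were RPE (0.20 and 0.12) and RPIA (0.11 and 0.09). On each day 28 of the 36 members were above that level, and the median of all genes was 0.02. GBE1 was lower by 0.60 and 0.50, which meets the rule on day 2 only. The other kinases read 8.18 and 8.73 with 4-OHT and knockdown, 8.29 and 8.76 with 4-OHT alone and 8.27 untreated for PDK1, 5.01 and 5.32 with 4-OHT and knockdown, 6.67 and 6.18 with 4-OHT alone and 6.08 untreated for PDK3 and 4.56 and 4.48 with 4-OHT and knockdown, 4.57 and 4.88 with 4-OHT alone and 4.69 untreated for PDK4. The phosphofructokinase subunits read 10.11 and 9.40 with 4-OHT and knockdown, 9.44 and 9.46 with 4-OHT alone and 9.42 untreated for PFKP, 7.12 and 6.44 with 4-OHT and knockdown, 6.94 and 7.31 with 4-OHT alone and 6.64 untreated for PFKL and 8.19 and 7.28 with 4-OHT and knockdown, 8.28 and 8.50 with 4-OHT alone and 7.91 untreated for PFKM. The PFKFB genes read 7.05 and 6.74 with 4-OHT and knockdown, 7.06 and 7.72 with 4-OHT alone and 7.02 untreated for PFKFB3, 7.70 and 8.19 with 4-OHT and knockdown, 8.06 and 7.55 with 4-OHT alone and 8.01 untreated for PFKFB2 and 5.19 and 4.74 with 4-OHT and knockdown, 5.34 and 5.13 with 4-OHT alone and 5.01 untreated for PFKFB4. PFKL, PFKM and PFKFB3 were at least 1.5-fold higher on day 4 and not on day 2.

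Comparing the isozymes by their differences rather than their levels separated several families, with no test. ALDOC exceeded ALDOA by 2.09 and 2.53 in hypoxia without knockdown, by 0.57 and 1.46 with 4-OHT, and was behind it by 1.28 and 1.09 with TGFβ. ENO2 exceeded ENO1 by 2.12 and 1.55 in hypoxia, and with TGFβ the 2 differed by -0.04 and 0.04 (-0.49 and -0.54 as deposited). PFKFB3 exceeded PFKFB2 by 1.79 and 1.44 in hypoxia and by 1.49 and 1.70 with hypoxia and knockdown. On day 1 with knockdown both were below the untreated level, PFKFB2 by more.

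PDK1 exceeded PDK2 by 1.95 and 1.33 in hypoxia and trailed it by 0.90 and 0.35 with 4-OHT. PFKP exceeded PFKL by 0.45 and 0.48 in hypoxia and by 1.14 and 1.05 with TGFβ, a gap of 1.48 and 1.46 on the deposited values. PFKM trailed PFKL by 0.41 and 0.55 in hypoxia. PGM2 trailed PGM1 by 0.87 and 0.87 in hypoxia and exceeded it by 0.60 and 0.77 with TGFβ. SLC2A3 and SLC2A1 differed from each other by 0.23 and -0.00 in hypoxia. Pairs with HK2, LDHB, PFKFB4, PDK3 or PDK4 include a dim gene, and of these PDK3 exceeded PDK2 by 1.16 and 0.78 in hypoxia.

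**Figure D3:**
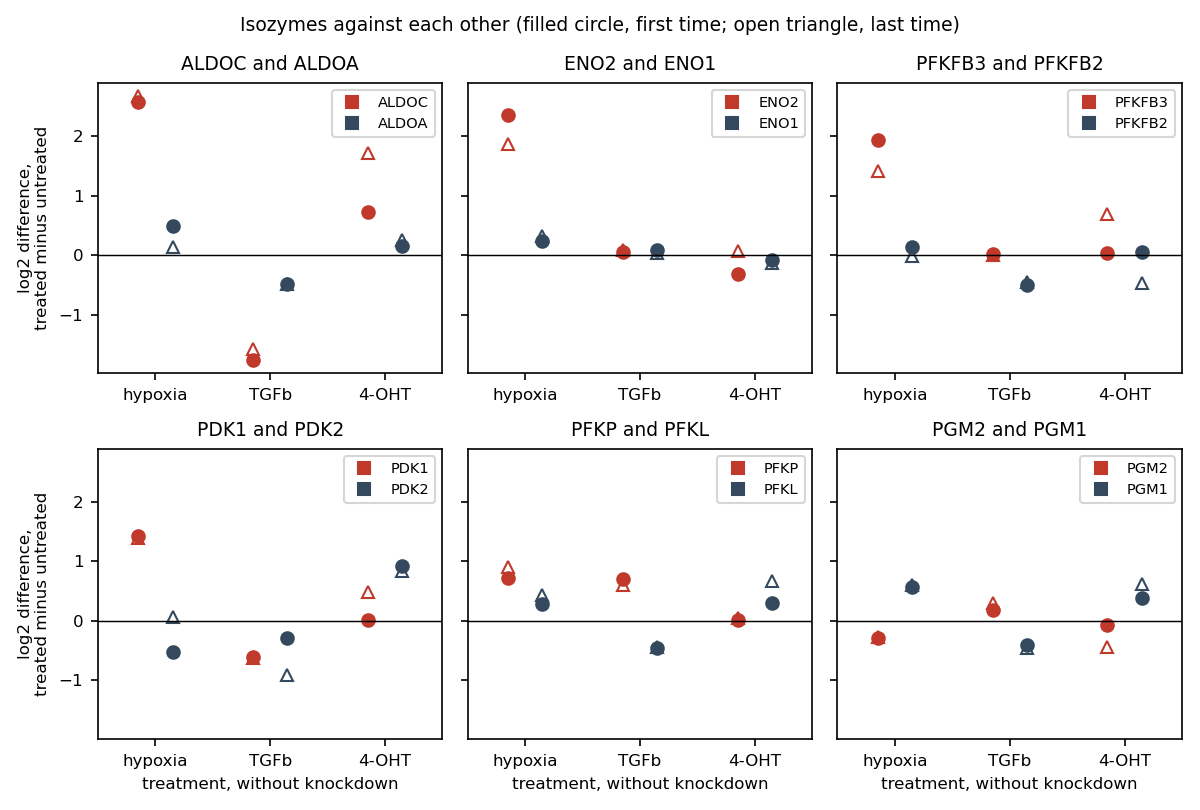
Log2 difference from the untreated array of the same line for 6 isozyme pairs (red and dark blue) under each treatment without knockdown; filled circles are day 1 (day 2 for 4-OHT) and open triangles day 2 (day 4 for 4-OHT). ALDOC, ENO2, PFKFB3 and PDK1 lie well above their partners in hypoxia, and ALDOC lies below ALDOA with TGFβ.

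ANGPTL4 knockdown was compared with no knockdown in 6 pairs of the same treatment and time. No member passed the threshold in limma's fit over all genes, against 10 genes higher (0.0905%) and 87 lower (0.787%). At an unadjusted p under 0.05, PGM2 and RPE were higher, and PDHA1, PGM1, PGLS, TKT and TALDO1 lower, 2 and 5 of 36 members against 4.77% and 14.3% of all genes. The median member was -0.18, against -0.06 for all genes. Those 5 were also the members lower in 6 of 6 pairs, against 917 genes (8.30%), and no member was higher in all 6, against 428 genes (3.87%). As deposited, only PDHA1 and TALDO1 were lower in 6 of 6 pairs, 2 of 36 against 2.73% of all genes, and PGM2 was higher in all 6, against 6.73%. On that scale both TGFβ pairs were above 0 for PGM1 (0.28 and 0.48), PGLS (0.40 and 0.34) and TKT (0.08 and 0.24). Centred on the array medians, 8 members were lower in all 6, against 17.1% of all genes. The median over all genes was 0.12 as deposited and -0.23 centred, and that of the members -0.01 and -0.37.

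TALDO1, transaldolase, came nearest to the threshold. It differed by -0.57 and -0.75 in the hypoxia pairs, -0.71 and -0.36 in the TGFβ pairs and -0.10 and -1.19 in the 4-OHT pairs, an estimate of -0.61 (SE 0.15, adjusted p = 0.0982 by limma). TKT differed by -1.24 and -0.50 in the hypoxia pairs, -0.23 and -0.04 in the TGFβ pairs and -0.57 and -1.93 in the 4-OHT pairs, an estimate of -0.75 (SE 0.24, adjusted p = 0.153 by limma), and PGM1 by -1.31 and -0.43 in the hypoxia pairs, -0.22 and -0.05 in the TGFβ pairs and -0.36 and -1.19 in the 4-OHT pairs, an estimate of -0.59 (SE 0.19, adjusted p = 0.157 by limma). For TKT and PGM1 the largest differences were those of hypoxia day 1 and 4-OHT day 4. With each array centred on its median, 5 of 36 members were lower past the threshold by limma (PGM1, TALDO1, PFKM, TKT and PDHA1). On that scale 1171 of 11050 genes were lower. With array weights, which give less weight to arrays far from the fit, TALDO1, PGLS and PDHA1 were lower and UGP2 and RPE higher. These were 3 and 2 of 36 members, against 1297 genes lower and 401 higher of 11050.

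The pairs were unlike each other. In 15 of 36 members the level with knockdown was at least 1.5-fold lower on day 1 of hypoxia, where 22.2% of all genes were, and 15 were on day 4 of 4-OHT, where 21.7% of all genes were. In the other 4 pairs 0 to 4 members were, and 8.98% to 14.6% of all genes. On hypoxia day 1 the members furthest down were ALDOC (-3.21), PFKFB3 (-2.91), PFKFB2 (-2.61), PFKP (-1.56), HK1 (-1.54) and ENO2 (-1.44). On day 2 the same 6 were 0.60, 0.54, 0.28, -0.29, -0.04 and 1.10. ALDOC, PFKFB3, PFKFB2 and ENO2 were thus lower with knockdown on day 1 and higher on day 2. The day 1 array with knockdown is the one that stood apart, and its part in these values was not tested. Without that pair limma still called no member, with 52 genes higher and 375 lower.

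Within each treatment, limma called no member. With hypoxia 0 of 11050 genes (0%) passed. At an unadjusted p under 0.05, 4 of 36 members (PGM1, PFKP, PFKM and TKT) were lower, against 9.19% of all genes, and 0 higher, against 3.1%. With TGFβ 0 genes (0%) passed and 0 members were under 0.05 unadjusted, against 2.27% of all genes higher and 6.14% lower. With 4-OHT 86 genes (0.778%) passed. At an unadjusted p under 0.05, 6 of 36 members were lower (PGM1, PYGL, PDK2, PGLS, TKT and PDHB), against 12.3% of all genes, and 0 higher, against 6.07%. PDHB, a subunit of pyruvate dehydrogenase, came closest, at -1.05 (SE 0.21, limma adjusted p = 0.071). It read 8.01 and 7.78 with 4-OHT and knockdown, 8.94 and 8.94 with 4-OHT alone and 8.90 untreated. Both arrays with knockdown were below the other derivative arrays. The F test of a difference between the treatments passed for no member (lowest limma adjusted p = 0.43, for PDHB), and 2 of 36 were under 0.05 unadjusted, against 9.3% of all genes.

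**Figure D4:**
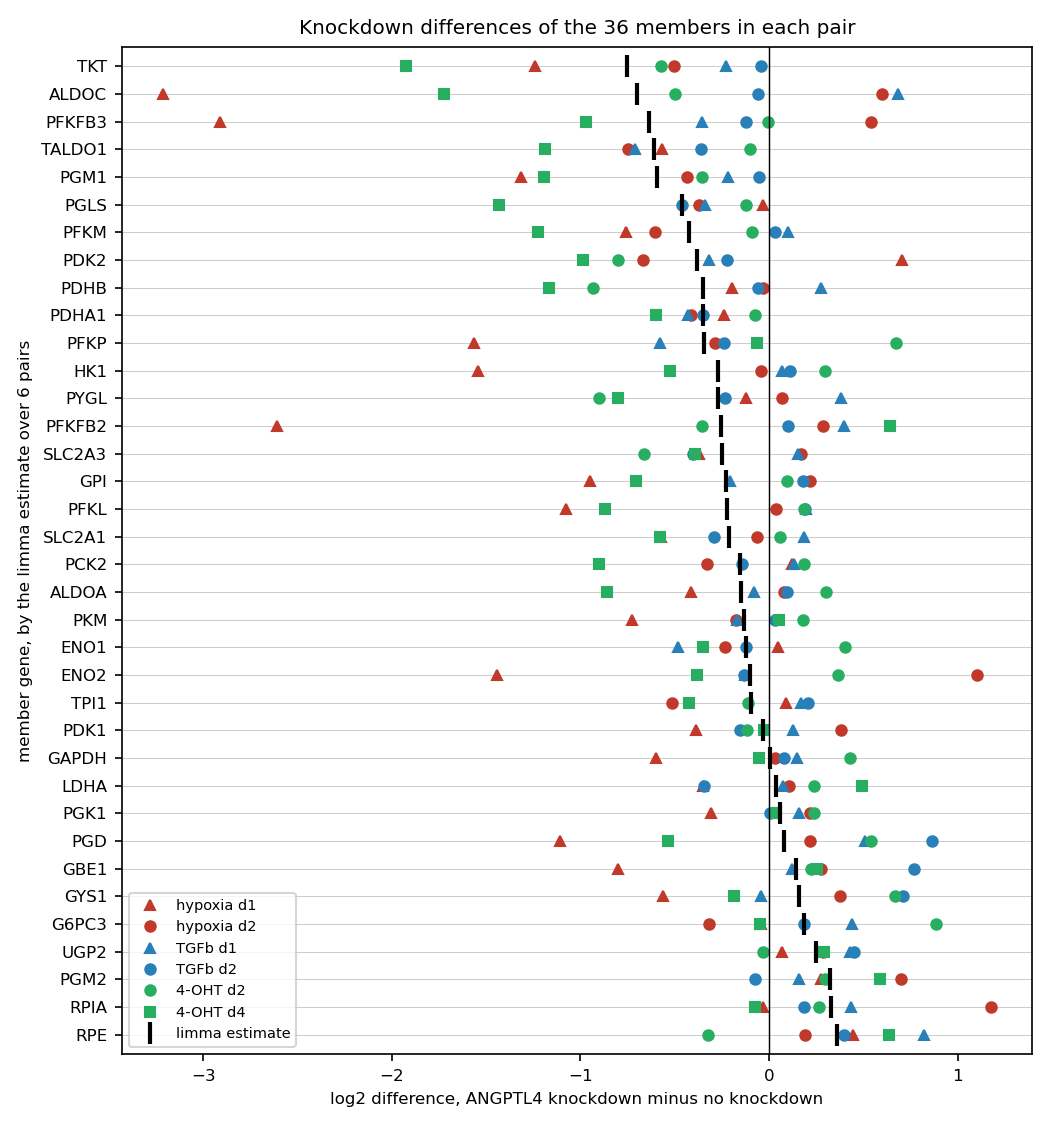
Log2 difference between arrays with and without ANGPTL4 knockdown in each of 6 pairs (points, coloured by treatment) for the 36 kept members, ordered by limma's estimate (black bars). TKT, TALDO1, PGM1, PGLS and PDHA1 have all 6 points left of 0 on this quantile normalized scale (as deposited, only TALDO1 and PDHA1 do), and ALDOC, PFKFB3 and PFKFB2 spread most, with their lowest points on hypoxia day 1.

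A further list of 77 genes of the same pathways was examined, of which 69 were measured and 40 kept. With hypoxia PDP1, a phosphatase that reactivates pyruvate dehydrogenase (0.94 and 1.02), and PPP1R3B, which targets a phosphatase to glycogen (1.00 and 0.71), were higher on both days. SHPK, which phosphorylates sedoheptulose, was lower (-0.94 and -0.79). With TGFβ MPC1, of the mitochondrial pyruvate carrier (0.84 and 0.88), was higher. SLC2A12 (-0.76 and -0.63), PGM2L1 (-0.79 and -0.70), SHPK (-0.68 and -0.71) and the galactose enzymes GALM (-0.91 and -1.03) and GALT (-0.74 and -0.61) were lower. With 4-OHT GYG2, a glycogenin that primes glycogen (1.18 and 1.05), was higher and none lower. That makes 2 higher and 1 lower of 40 with hypoxia, against 3.02% and 1.95% of all genes, on the quantile normalized scale. The counts were 1 and 5 with TGFβ, against 2.47% and 3.27%, and 1 and 0 with 4-OHT, against 2.33% and 1.21%. No gene of this list passed limma's threshold for hypoxia against TGFβ or for knockdown. At an unadjusted p under 0.05, 3 were higher and 6 lower in hypoxia than with TGFβ, against 8.73% and 12.4% of all genes. With knockdown 2 were higher and 5 lower, against 4.77% and 14.3%.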

How the data were processed

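Gene expression was measured on 14 Human Gene 1.0 ST arrays, from Trizol RNA amplified and biotin labelled with NuGEN kits. The deposited values are log2 expression values per probe set, which the authors made with RMA and Partek according to the submitters' processing notes, with versions not given in the sources used here. Background correction and summarization were not run again. Identical values on 2 or more arrays occur for 29.6% of all probe sets and for 7 members.

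Values were quantile normalized anew over the 14 arrays, because both TGFβ arrays without knockdown lay lower, and this forces a single distribution on all arrays. Of 33297 probe sets, 21214 are in the array's annotation, 19460 with 1 symbol, updated through the gene ID for 19429. Averaging the probe sets that share a symbol left 18417 genes. Genes with a mean under the 40th percentile (log2 5.90) were left out. Samples were grouped by treatment, line, time and knockdown in their labels.

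Conditions with 1 array were compared by a rule of 1.5-fold in the same direction at both times, with no test. Knockdown (6 pairs, 5 residual degrees of freedom; by treatment, 3) and hypoxia against TGFβ (4 pairs, 3 residual degrees of freedom) were fitted with limma's lmFit and eBayes with the pair as a block, two-sided, with Benjamini-Hochberg adjustment over 11050 genes taking 0.05 as the threshold. Pairing follows from the labels, which give each treated condition with and without knockdown. The fits were also run on simulated data with known changes. How many of those were found is not given here, so a gene not called is not shown to be unchanged. Alternatives were other scales, filters and fold rules, single times, subsets of pairs, array weights, a fit that ignores the pairs, and eBayes with a mean-variance trend. Using deposited values for the knockdown pairs alone was added after seeing the data. Values on every array are given for members called in any comparison and for their isozymes, others by ranges and counts, and genes outside the list only where called. The members and lists were chosen with earlier results of these data known. The number of arrays limits the precision. Analyses used R 4.3.3, limma 3.58.1 and data.table (version 1.17.8).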

Additional observations from a re-analysis of the deposited data

How the results depend on the processing

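Every comparison with an untreated array rests on 1 array per line, and no condition was repeated, so array and condition cannot be told apart. Among the counts, 118 stayed within 1.5 times the main value and 63 did not. Why the counts moved was not tested.

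With a 2-fold rule, members higher were 4 in hypoxia, 0 with TGFβ and 1 with 4-OHT, and 1 was lower with TGFβ. The share of all genes under that rule is not given here. With the last time alone, 1 member was lower in hypoxia, against 4.70% of all genes. On that setting 10 were higher with 4-OHT, against 10.8% of all genes. With the first time alone, 1 was lower with 4-OHT, against 1.91% of all genes. With TGFβ, deposited values gave 0 members higher and 17 lower, and median centring 5 and 2, with the medians of the members and of all genes above 0. Shares of all genes are not given for these TGFβ counts, and all genes shifted too.

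For knockdown, array weights gave 2 members higher and 3 lower, and median centring 5 lower. Over all genes, those higher were 5 on deposited values, 20 with median centring, 16 with a mean-variance trend, 401 with array weights and 0 without the TGFβ pairs. Those lower were 9 on deposited values, 1171 with median centring, 45 without the pair block, 1297 with array weights and 2 without the TGFβ pairs. Leaving out 1 pair gave 0 to 52 genes higher and 0 to 375 lower, both highest without the hypoxia pair of day 1. The estimate over 6 pairs changed sign for 5 members on deposited values (PFKL, ENO1, ENO2, PDK1 and PYGL) and for 7 with median centring (GAPDH, PGK1, LDHA, GYS1, GBE1, UGP2 and PGD), none of them past the threshold over the 6 pairs on either scale. Within TGFβ, deposited values called 2 members higher with knockdown (PYGL and G6PC3), on a scale where both arrays without knockdown lay lower. Within 4-OHT the fit without the pair block called 1 lower (PDHB). Counts over all genes are not given for these settings, so the calls are not read as particular to the members.

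For hypoxia against TGFβ, members higher were 7 without the pair block and 0 in the knockdown pairs alone, on either scale, where 0 genes passed in either direction. Median centring gave 3 members lower (TALDO1, RPIA and PDHA1). Over all genes, deposited values gave 185 higher and 51 lower, the fit without the pair block 207 and 266, and median centring 1076 lower. Leaving out 1 pair gave 0 to 15 members higher, 0 to 949 genes higher and 0 to 1084 lower, all highest without the day 1 pair with knockdown.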
